A study of Mus musculus with 6 samples.

Results

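The genes described here are 10 members of the cross-presenting dendritic cell axis, of 32285 genes in the deposited matrices, and all 10 were found by their symbols. They were Xcr1, Clec9a, Tlr3, Flt3 and Cadm1 (surface and endosomal receptors), Batf3 and Irf8 (transcription factors), Wdfy4 (an intracellular adaptor), and the ligands Xcl1 and Flt3l. Single-cell RNA-Seq was carried out on CD45+ cells from B16-F10 melanomas grown in female C57BL/6 mice of 6 to 10 weeks, after inoculation of 250000 cells. Both groups received αPD-1, 150 µg 3 times a week from day 7. There were 3 samples with αPD-1 alone and 3 with αPD-1 + corin, in which corin, an inhibitor of the CoREST complex (LSD1, HDAC1 and the scaffold CoREST), was given daily at 200 µg from day 6. Each arm of the experiment held 10 mice. No label ties a sample to an animal, so p values measure the spread between these samples only. B16-F10 is 1 transplanted mouse melanoma line, and tumor suspensions had been frozen, thawed and cleared of dead cells before the CD45 bead isolation.

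Type 1 conventional dendritic cells (cDC1) are the dendritic cells that take up dead cell material and present its peptides on MHC class I to CD8 T cells, a process called cross-presentation. Their development depends on IRF8 and BATF3, and FLT3 ligand acting on its receptor FLT3 maintains dendritic cells in tissues. CLEC9A binds actin filaments exposed on dead cells, TLR3 senses double-stranded RNA in endosomes, WDFY4 is needed for cross-presentation of cell-associated antigen, and CADM1 is an adhesion molecule used to mark cDC1. XCR1 is the receptor for XCL1, a chemokine released by natural killer (NK) cells and activated CD8 T cells, and this pair is known to bring cDC1 and lymphocytes together in tumors.

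All members are protein-coding genes. On GRCm39 (GENCODE annotation), Xcr1 lies at chr9:123681380-123691094 (minus strand), Clec9a at chr6:129385825-129401726 (plus), Tlr3 at chr8:45848702-45864117 (minus), Flt3 at chr5:147267551-147337483 (minus), Cadm1 at chr9:47441471-47773576 (plus), Irf8 at chr8:121463096-121485659 (plus), Batf3 at chr1:190830044-190841142 (plus), Wdfy4 at chr14:32681504-32907465 (minus), Xcl1 at chr1:164759213-164763096 (minus) and Flt3l at chr7:44779212-44785875 (minus). The Flt3l gene overlaps Gm45713 on the same strand, so reads from these 2 genes may not be told apart. The 250 bases upstream of the start site are shown for Xcr1, the receptor of Xcl1, for Clec9a, the receptor for dead cells, and for both ligands, the genes on which the results below turn, as RefSeq gives them on GRCm38.p6, a different build from the positions above. They lie at chr9:123862030-123862279 (Xcr1, minus strand), chr6:129408612-129408861 (Clec9a, plus), chr1:164935523-164935772 (Xcl1, minus) and chr7:45136433-45136682 (Flt3l, minus), 5′ to 3′ on the gene's strand, with motif matches in capitals.
Xcr1: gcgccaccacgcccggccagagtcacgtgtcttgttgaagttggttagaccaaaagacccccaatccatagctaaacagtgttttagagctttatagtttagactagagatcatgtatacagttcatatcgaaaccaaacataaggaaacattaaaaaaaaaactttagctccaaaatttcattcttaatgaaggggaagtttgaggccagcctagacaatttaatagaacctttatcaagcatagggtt
Clec9a: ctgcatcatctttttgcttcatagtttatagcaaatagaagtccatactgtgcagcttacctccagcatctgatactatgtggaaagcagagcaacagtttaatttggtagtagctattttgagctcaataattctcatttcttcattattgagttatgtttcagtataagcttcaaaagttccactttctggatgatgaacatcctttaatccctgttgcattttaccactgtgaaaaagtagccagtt
Xcl1: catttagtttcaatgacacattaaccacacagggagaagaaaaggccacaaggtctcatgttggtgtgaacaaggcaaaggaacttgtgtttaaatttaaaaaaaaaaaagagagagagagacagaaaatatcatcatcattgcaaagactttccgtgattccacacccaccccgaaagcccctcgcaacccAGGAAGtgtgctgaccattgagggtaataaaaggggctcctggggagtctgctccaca
Flt3l: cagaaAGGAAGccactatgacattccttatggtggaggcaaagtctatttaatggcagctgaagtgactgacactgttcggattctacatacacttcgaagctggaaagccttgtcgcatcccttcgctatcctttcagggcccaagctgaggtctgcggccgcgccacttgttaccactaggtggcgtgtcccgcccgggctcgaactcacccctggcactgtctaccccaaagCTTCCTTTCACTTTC

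On both strands these windows were searched for AP-1 (TGANTCA), an IRF pair (GAAA, any 2 bases, GAAA), a PU.1-IRF composite (GGAA, any 2 bases, GAAA), a T-box site (AGGTGTGA) and an ETS core (AGGAAG). The Flt3l window held an IRF pair that ends at the start site and is present in 2.977% of 32851 RefSeq promoter windows, and an ETS core that overlaps it, besides a second ETS core at its far end. The Xcl1 window held 1 ETS core, which 29.485% of windows hold. The windows of Xcr1 and Clec9a held none of these motifs. The matches are a description of sequence, not of binding.

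Among the 28865 cells kept from 52899 barcodes, 375 formed the cDC1, in 2 clusters of 286 and 89 cells, the latter led by genes of the cell cycle such as Mki67 and Top2a. The member genes were left out of the clustering, and cDC1 were named from 12 other markers, of which 12 and 11 were raised in the 2 clusters. The summed level of these markers in cDC1 was 4219 to 4594 CPM (UMIs scaled to a total of 1000000 for the cells summed) with αPD-1 and 4449 to 5165 CPM with αPD-1 + corin, against 680 to 751 CPM over all samples in type 2 conventional dendritic cells (cDC2). The other lineages used below were cDC2 (584 cells), mature dendritic cells (153), plasmacytoid dendritic cells (pDC, 380), monocytes and macrophages (12238), neutrophils (1972), NK cells (433), CD8 T cells (1870), CD4 T cells (401), T cells with UMIs of neither or both coreceptors ("other T cells", 1399) and B cells (2638), besides 2877 cells in clusters with markers of several lineages. Libraries held 52281422 to 84276739 UMIs before filtering, and pairs of libraries shared 10 to 32 barcodes. B cell markers in cDC1 sums reached 663 to 815 CPM with αPD-1 and 198 to 239 CPM with αPD-1 + corin, T cell markers 155 to 216 CPM and 120 to 182 CPM, and monocyte and macrophage markers 1723 to 2318 CPM and 2505 to 3499 CPM. The part of such RNA in the values below was not tested.

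Xcr1, Clec9a, Tlr3 and Wdfy4 had their highest level in cDC1. Xcr1 averaged 299 ± 34.2 CPM in cDC1 (SD, n = 6 samples), and the next lineage, mature dendritic cells, averaged 35.5 ± 52.9 CPM (n = 5), its highest sample at 122 CPM. Clec9a averaged 277 ± 39.5 CPM in cDC1, 141 ± 39.2 CPM in pDC and 46.4 ± 25.1 CPM in cDC2. The cDC1 samples (219 to 337 CPM) lay above all pDC samples (76.6 to 192 CPM), whereas pDC and cDC2 overlapped slightly. Tlr3 averaged 133 ± 15.2 CPM in cDC1, and endothelial cells followed with 27.3 ± 17.6 CPM. Wdfy4 averaged 1072 ± 121 CPM in cDC1 and 366 ± 75.2 CPM in B cells, and these 2 did not overlap. All lineages are compared here by description, since they are clusters of the same cells.

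The other dendritic cell members were shared more widely. Irf8 was highest in pDC (2505 ± 221 CPM), then in cDC1 (1627 ± 129 CPM), and no sample overlapped between these 2. Mature dendritic cells (453 ± 87.3 CPM) and NK cells (391 ± 56.8 CPM) followed and overlapped. Batf3 stood at 214 ± 63.9 CPM in mature dendritic cells and 178 ± 24.3 CPM in cDC1, with overlapping samples, and at 48.6 ± 10.1 CPM in cDC2. The FLT3 receptor gene gave 318 ± 122 CPM in mature dendritic cells, 210 ± 31.9 CPM in cDC1, 146 ± 45.5 CPM in pDC and 112 ± 28.1 CPM in cDC2, each overlapping the next. Cadm1 was highest outside the immune cells, at 465 ± 185 CPM in melanoma cells, and reached 151 ± 47.4 CPM in cDC1. Monocytes and macrophages had a Cadm1 level of 85.2 ± 53.7 CPM, which overlapped that of cDC1.

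**Figure D1:**
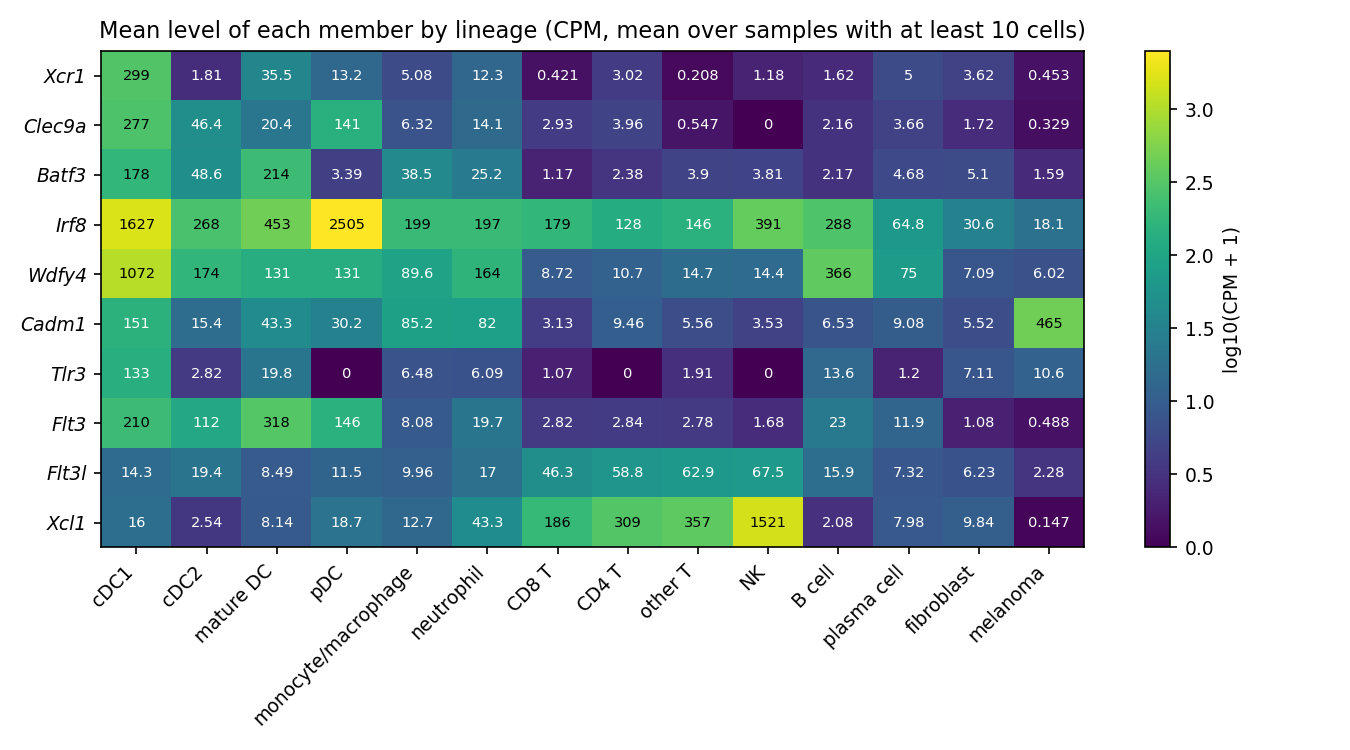
Heat map of the level of each member (rows) in each lineage (columns), as the mean over samples of CPM, written in each cell, with color on the scale log10(CPM + 1). Xcr1, Clec9a, Tlr3 and Wdfy4 peak in cDC1, Irf8 in pDC, Batf3 and Flt3 in mature dendritic cells, Cadm1 in melanoma cells, and Xcl1 and Flt3l in NK cells.

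Most cDC1 carried several members at once. A UMI of Xcr1 or Clec9a was found in 307 of 375 cells (81.9%), of both in 187 (49.9%), and 308 cells (82.1%) held at least 4 of the 8 members other than the ligands. Xcr1 was detected in 61.1% of cDC1 (95% Wilson interval 56.0 to 65.9) and Clec9a in 70.7% (65.9 to 75.0), at a median of 5752 UMIs per cell. In CD8 T cells, which should lack these receptors, the shares were 0.374% and 0.428% at a median of 3286.5 UMIs. After each cell was thinned to 1000 UMIs the shares were 21.3% and 22.9% in cDC1 against 0.108% and 0.054% in CD8 T cells. These intervals cover counting error only.

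Within cDC1, every one of these 8 members had a lower pooled level in the cycling cluster than in the larger one. Xcr1 stood at 194 against 338 CPM, Clec9a at 194 against 312 CPM, Tlr3 at 103 against 144 CPM and Wdfy4 at 831 against 1184 CPM. Batf3 showed the smallest contrast, with 164 against 180 CPM. These are clusters of the same cells, given without a test.

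The share of cDC1 among immune cells was 1.03%, 0.878% and 1.23% with αPD-1 and 1.84%, 1.56% and 1.89% with αPD-1 + corin. The groups did not overlap, with means of 1.05 ± 0.176% and 1.76 ± 0.178%, and an exact two-sided permutation test gave p = 0.1, the smallest that 3 against 3 samples allow (adjusted p = 0.18 over the lineages compared). Among conventional and mature dendritic cells alone, cDC1 made up 35.1 ± 2.80% and 35.6 ± 8.71% (exact p = 0.9). The share of cDC2 among immune cells was 1.56 ± 0.391% with αPD-1 and 2.66 ± 0.768% with αPD-1 + corin, also without overlap (exact p = 0.1), and that of mature dendritic cells overlapped. The cDC1 difference of 0.715 percentage points was 0.486 when barcodes with more than 4000 genes were kept. The cDC1 shares of the groups overlapped in that setting and at resolution 0.4 (exact p = 0.2 in both). The separation also rested on the cells in the denominator. B cells numbered 765, 710 and 1060 with αPD-1 and 44, 48 and 11 with αPD-1 + corin, and cells of mixed clusters 797, 519 and 747 against 147, 125 and 542. With both left out of the denominator, cDC1 made up 1.66%, 1.35% and 2.21% with αPD-1 and 1.90%, 1.64% and 2.19% with αPD-1 + corin, which overlapped (exact p = 0.8), and the cDC2 shares overlapped too (exact p = 0.6). Neutrophils numbered 615, 1215 and 94 with αPD-1 + corin and were few with αPD-1. With neutrophils left out as well, cDC1 made up 1.67%, 1.36% and 2.23% with αPD-1 and 2.10%, 2.57% and 2.26% with αPD-1 + corin. These shares overlapped (exact p = 0.2), as did those of cDC2 (exact p = 0.2). A higher share of cDC1 and changed shares of these other cells cannot be told apart here.

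**Figure D2:**
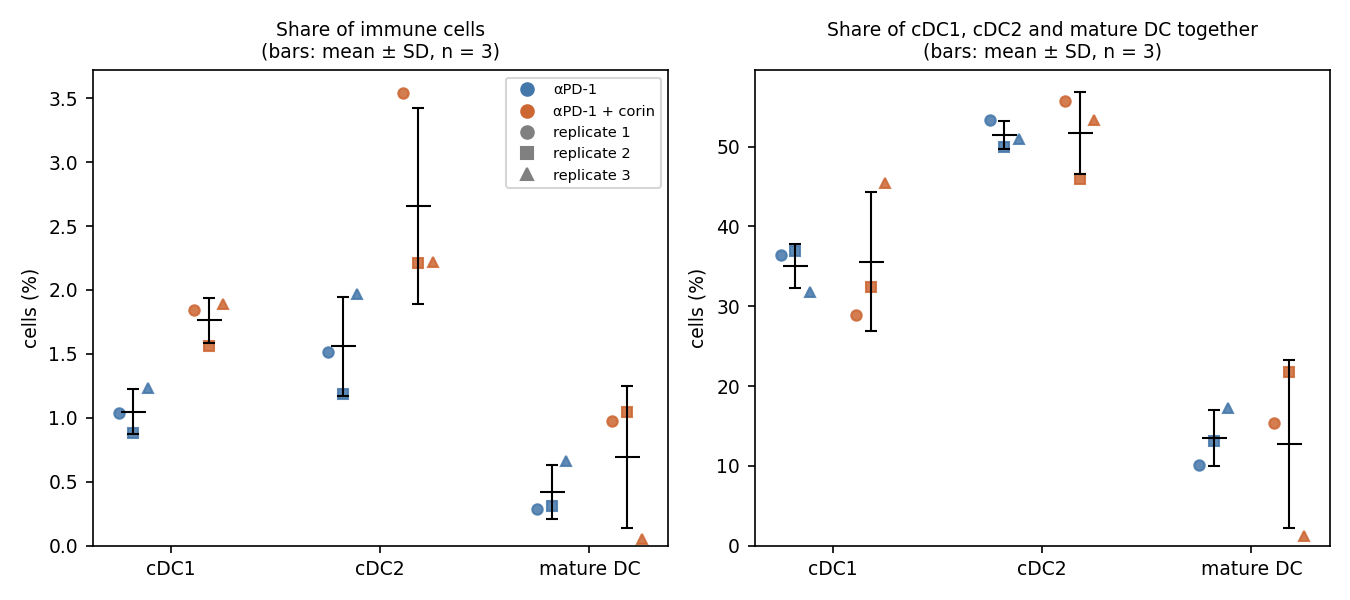
Percentage of immune cells that were cDC1, cDC2 or mature dendritic cells in each sample (left, points), and of conventional and mature dendritic cells together (right), with the mean and SD of each group. Of immune cells, the 3 αPD-1 + corin samples lie above the 3 αPD-1 samples for cDC1 and cDC2, and overlap with them for mature dendritic cells. On the right the groups overlap.

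The next comparison asked whether cDC1 in tumors treated with αPD-1 + corin differed from those with αPD-1 alone in the level of the axis genes. None of the 8 members that passed the low-count filter was called in cDC1 (edgeR quasi-likelihood test, 0.777% of 5532 genes called, 0 members at an unadjusted p under 0.05, 0 by DESeq2). For each of the 8 the samples of the groups overlapped, whereas 15.5% of tested genes did not overlap. Xcl1 and Flt3l did not pass the filter in cDC1.

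Among the receptors, Xcr1 in cDC1 was 292, 301 and 297 CPM with αPD-1 and 240, 335 and 331 CPM with αPD-1 + corin. The αPD-1 samples lay close together and inside the range of the other group (log2 fold change 0.05 ± 0.16, SE, adjusted p = 0.95). Clec9a was 219, 290 and 259 CPM with αPD-1 and 265, 290 and 337 CPM with αPD-1 + corin, a difference that did not pass (log2 fold change 0.25 ± 0.16, adjusted p = 0.65). Tlr3 ranged from 127 to 139 CPM and from 116 to 160 CPM, and Flt3 from 181 to 241 CPM and from 177 to 255 CPM. Their log2 fold changes were 0.05 ± 0.19 and 0.04 ± 0.18. Cadm1, the adhesion molecule, ranged from 100 to 200 CPM and from 103 to 208 CPM, so its groups covered the same span.

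Of the transcription factors, Batf3 was 181, 216 and 168 CPM with αPD-1 and 169, 144 and 190 CPM with αPD-1 + corin (log2 fold change -0.12 ± 0.18). Irf8 was 1691, 1603 and 1468 CPM and 1590, 1562 and 1846 CPM (log2 fold change 0.10 ± 0.11). Neither separated the groups. Wdfy4, the cross-presentation adaptor, was 974, 1093 and 925 CPM with αPD-1 and 1270, 1116 and 1051 CPM with αPD-1 + corin, with a log2 fold change of 0.24 ± 0.12 (adjusted p = 0.53). In simulated counts for cDC1 built on the real libraries, 111 of 200 genes given a 2-fold change and 198 of 200 given a 4-fold change were called. These genes were drawn at random from all 5532 tested, so the rates are not those of the members. The smallest change that would have been called in these members was not tested. The share of cDC1 with a UMI, thinned to 1000 UMIs, overlapped between groups for all 8 members, for example 19.8 ± 8.10% and 23.5 ± 4.50% for Xcr1 (exact p = 0.6).

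**Figure D3:**
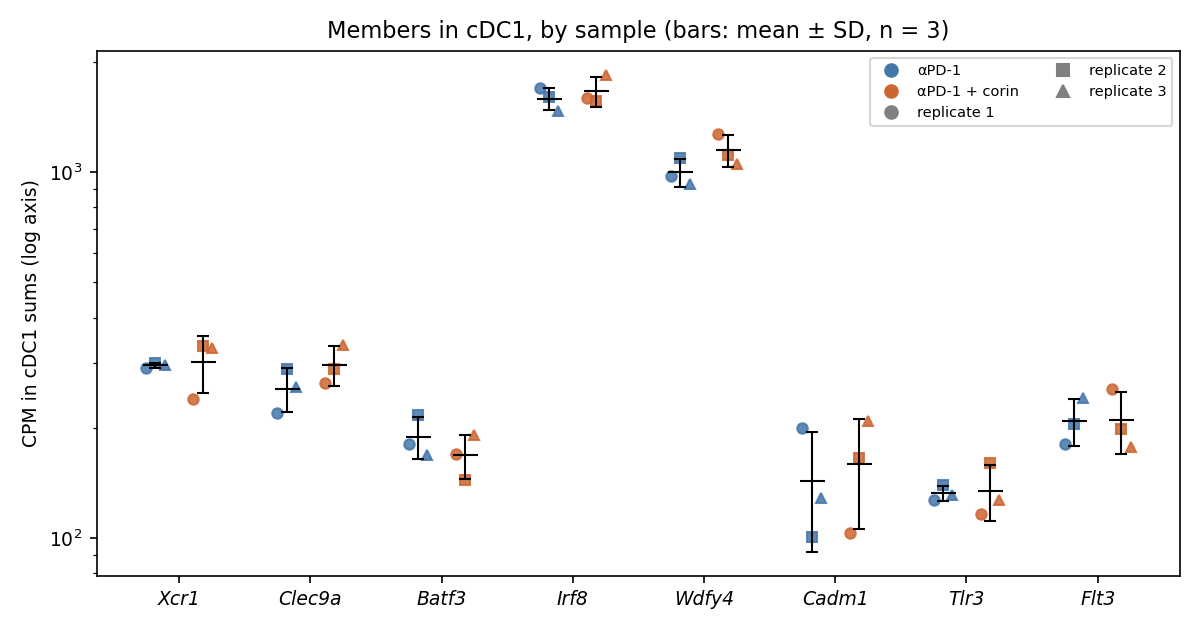
Level of each of the 8 members other than the ligands in cDC1 (CPM, log axis) for each sample, with group means and SD. For every member the αPD-1 and αPD-1 + corin samples overlap, for example Wdfy4 at 925 to 1093 and 1051 to 1270 CPM.

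No member was called in the other dendritic cells either. In cDC2, 5 members passed the filter and 0 were called (edgeR, 0.0389% of 5141 genes called, 1 at an unadjusted p under 0.05, 0 by DESeq2, which gave an adjusted p for 2 of the 5 and none for Clec9a). The gene with the unadjusted p under 0.05 was Clec9a, at 46.6, 82.5 and 56.6 CPM with αPD-1 and 19.9, 15.8 and 56.9 CPM with αPD-1 + corin, or 57 and 45 UMIs in all. The third corin sample lay within the αPD-1 range, and the log2 fold change was -1.02 ± 0.40 (adjusted p = 0.38). Without it the edgeR adjusted p was 0.0102, in a fit where the genes called went from 2 of 5141 to 304 of 5470. The change of Clec9a was 1.21 higher in cDC1 than in cDC2 on the log2 scale (95% interval 0.43 to 1.99, limma on differences within samples), which did not pass over the 4692 genes tested (adjusted p = 0.75, 0% called). Flt3 in cDC2 did not overlap between groups, 118 to 150 CPM with αPD-1 and 63.1 to 110 CPM with αPD-1 + corin (adjusted p = 0.60), where 15.7% of tested genes did not overlap.

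Mature dendritic cells had 4 members past the filter and 0 called (edgeR, 1.61% of 2047 genes called, 0 at an unadjusted p under 0.05, 0 by DESeq2). The third αPD-1 + corin sample held 2 of these cells and was left out of that fit. Flt3 in mature dendritic cells was 236, 509 and 359 CPM with αPD-1 and 200 and 284 CPM with αPD-1 + corin (log2 fold change -0.60 ± 0.37, adjusted p = 0.50). In pDC the 4 members tested were not called (edgeR, 1.21% of 3214 genes called, 0 at an unadjusted p under 0.05, 0 by DESeq2). Irf8 in pDC did not overlap between groups, 2278 to 2363 CPM with αPD-1 and 2553 to 2863 CPM with αPD-1 + corin, where 15.4% of tested genes did not overlap, and its log2 fold change was 0.17 ± 0.11 (adjusted p = 0.68). All 10 members were tested in monocytes and macrophages and 0 were called (edgeR, 0.482% of 12246 genes called, 1 at an unadjusted p under 0.05, 0 by DESeq2). Wdfy4 was the gene with the unadjusted p under 0.05, at 101 ± 3.72 and 77.8 ± 4.00 CPM without overlap, where 29.7% of tested genes did not overlap (log2 fold change -0.23 ± 0.10, adjusted p = 0.25).

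In the sum over all immune cells, levels follow both the share of a cell type and its level per cell. Xcr1 was 9.99, 11.1 and 12.2 CPM with αPD-1 and 11.5, 18.3 and 20.2 CPM with αPD-1 + corin, 1.68-fold in the fit, and Clec9a was 10.7, 12.5 and 15.0 CPM and 14.0, 23.0 and 22.1 CPM, 1.74-fold. For both, the first αPD-1 + corin sample lay inside the αPD-1 range. Neither passed (edgeR adjusted p = 0.058 and 0.056, 12.5% of 14467 genes called), and 0 of 10 members were called, with 5 at an unadjusted p under 0.05 (Batf3, Clec9a, Tlr3, Irf8 and Xcr1), as were 5284 of the 14467 genes. DESeq2 called 3, Xcr1, Clec9a and Tlr3, with 3594 of 24664 genes called. Leaving out the first αPD-1 + corin sample gave edgeR adjusted p = 0.0232 for Xcr1 and 0.0326 for Clec9a, where 1037 of 14842 genes were called. Leaving out the third gave 0.0414 and 0.0395, in a fit that called 5511 of 14973 genes. Leaving out the first or the third αPD-1 sample left 8 of 14890 and 46 of 14883 genes called. In simulated counts for these sums 1 of 200 genes given a 2-fold change was called and 164 of 200 given a 4-fold change. Only these 200 of 14467 genes were changed there, far fewer than the 12.5% called in the real fit, so the adjusted threshold differed. The simulation therefore cannot say whether differences of the size seen here were detectable. Wdfy4 in the same sums was 140 to 187 CPM with αPD-1 and 90.2 to 119 CPM with αPD-1 + corin, without overlap (adjusted p = 0.21, 44.4% of tested genes did not overlap).

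The ligand Xcl1 had its highest levels in NK and T cells. NK cells had the highest level, 1521 ± 339 CPM (n = 6), and 62.6% of them held an Xcl1 UMI (95% interval 57.9 to 67.0). Other T cells averaged 357 ± 224 CPM and CD8 T cells 186 ± 47.9 CPM, which overlapped. CD4 T cells averaged 309 ± 721 CPM, a mean set by 1 cell of 1 sample that is described below. In B cells 0.531% of cells held an Xcl1 UMI, at a median of 1690 UMIs, against 2058 in NK cells. NK cells were 1.52% and 1.71% of the cells kept with αPD-1 and with αPD-1 + corin, and gave 21.2 ± 5.84% and 18.8 ± 5.60% of all Xcl1 UMIs (exact p = 0.6).

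All T cells together gave 25.1%, 31.1% and 35.3% of Xcl1 UMIs with αPD-1 and 16.7%, 20.9% and 55.8% with αPD-1 + corin, and CD8 T cells 18.2 ± 2.47% and 16.5 ± 17.1% (exact p = 1.0). The αPD-1 + corin samples spread widely, and CD8 T cells made up 0.943%, 3.46% and 19.0% of their immune cells. Clusters with markers of several lineages held 37.3 ± 1.95% of Xcl1 UMIs with αPD-1 and 15.6 ± 7.50% with αPD-1 + corin, without overlap. These cells cannot be given to a source.

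**Figure D4:**
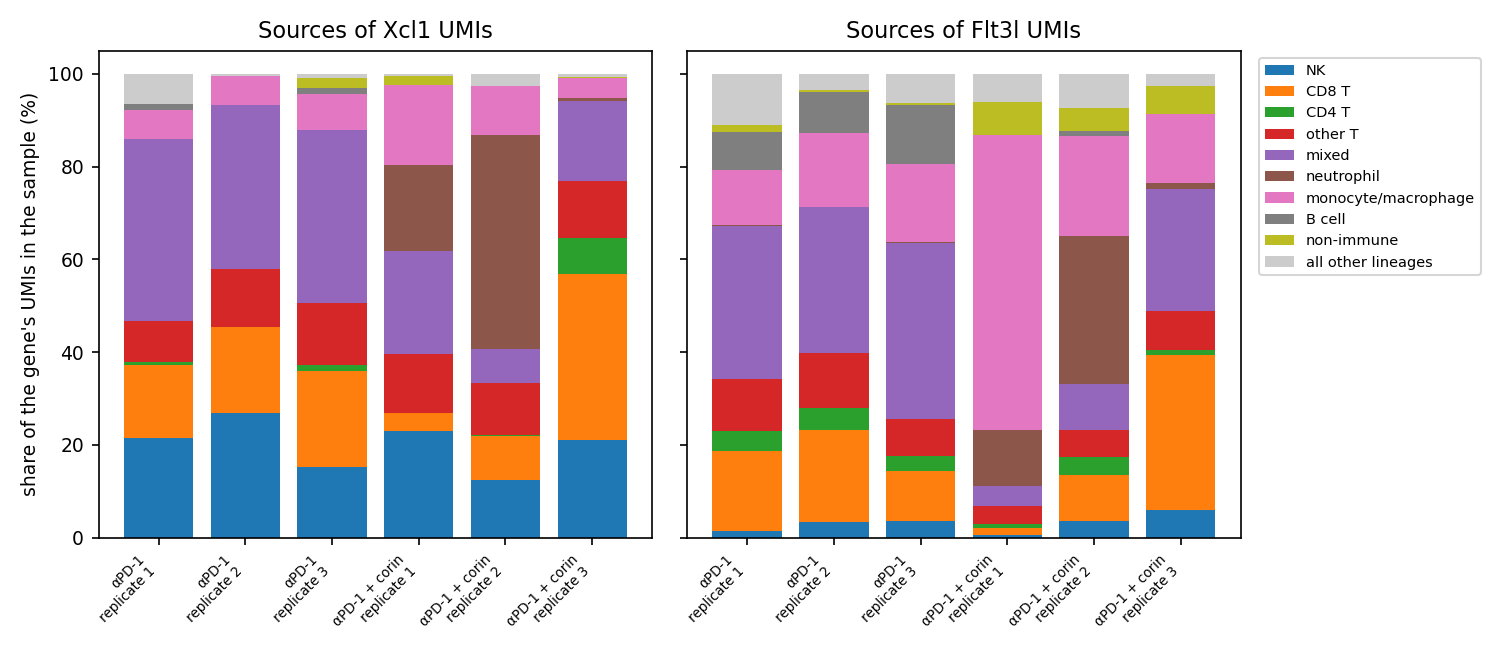
Percentage of all Xcl1 UMIs and of all Flt3l UMIs in kept cells that fell in each lineage, as stacked bars, 1 per sample. NK cells give 12.4 to 27.0% of Xcl1 UMIs, and neutrophils give 0% in the αPD-1 samples and 0.75 to 46.0% in the αPD-1 + corin samples.

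Xcl1 rose in the summed T cells with αPD-1 + corin, and the subsets that made up these T cells differed between the groups, as given below. In NK cells the difference did not pass, but did in 2 of 18 alternatives. In CD8 T cells Xcl1 was 133, 120 and 208 CPM with αPD-1 and 200, 211 and 241 CPM with αPD-1 + corin, and the third αPD-1 sample overlapped the other group. The change was 1.54-fold (log2 fold change 0.63 ± 0.18, edgeR adjusted p = 0.040), and 2 of the 4 members tested in CD8 T cells were called, where 7.88% of 8236 genes were (2.33% higher and 5.55% lower with αPD-1 + corin). DESeq2 did not call Xcl1 in CD8 T cells (adjusted p = 0.24), and the adjusted p over the alternatives lay between 0.0044 and 0.83. It passed in 7 of 19. Leaving out any sample but the third αPD-1 sample ended the call, with adjusted p from 0.0545 to 0.255.

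Other T cells and all T cells together were tested after their values had been seen. In other T cells Xcl1 was 101, 181 and 230 CPM with αPD-1 and 673, 541 and 419 CPM with αPD-1 + corin. Every αPD-1 + corin sample lay above every αPD-1 sample, 3.40-fold in the fit (log2 fold change 1.76 ± 0.24, edgeR adjusted p = 3.8e-05). In all T cells Xcl1 was 104, 123 and 192 CPM and 387, 267 and 306 CPM, again without overlap (2.35-fold, log2 fold change 1.23 ± 0.22, adjusted p = 0.0029). Of the 3 members tested in other T cells 2 were called, and of the 4 tested in all T cells 3, where 18.8% of 7315 genes (8.38% higher, 10.4% lower) and 18.5% of 9828 genes (6.65% higher, 11.8% lower) were called and 36.2% and 34.5% did not overlap. The increase in all T cells kept its sign and passed in 16 of 18 alternatives (adjusted p up to 0.19), and that in other T cells kept its sign and passed in 13 of 18 (up to 0.34).

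The T cell clusters were filled differently in the 2 groups. A cluster led by Igfbp4, Dapl1, Tcf7, Ccr7 and Lef1 held 310 of 777, 300 of 787 and 184 of 578 T cells with αPD-1 and 8 of 157, 11 of 286 and 18 of 1085 with αPD-1 + corin. Its Xcl1 level was low, at 26.5, 24.0 and 21.5 CPM in the αPD-1 samples. A change within T cells and this shift of subsets cannot be told apart in the T cell sums. Within a cluster led by Klra6, Klra1 and Klra7, Xcl1 was 265, 493 and 297 CPM with αPD-1 and 1028, 811 and 579 CPM with αPD-1 + corin, without overlap. In a cluster led by histone and cell cycle genes such as Hist1h1b and Ube2c it was 40.2, 97.8 and 92.6 CPM and 405, 233 and 163 CPM, also without overlap. In clusters led by Prss2, Ccl5 and Gzmk and by Foxp3 and Tnfrsf4 the groups overlapped, and in every other T cell cluster at least 1 αPD-1 + corin sample had fewer than 10 cells. These cluster levels were looked at after the sums and were not tested. The share of all genes without overlap was not counted in these clusters, and in the sum of all T cells it was 34.5%.

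The difference in the T cell sums was also seen in the share of T cells with an Xcl1 UMI. After thinning to 1000 UMIs it was 5.3%, 4.1% and 4.0% of CD8 T cells with αPD-1 and 14.8%, 11.5% and 6.9% with αPD-1 + corin, and 6.0 ± 3.3% and 19.8 ± 2.7% of other T cells. Neither pair of groups overlapped, and the exact p was 0.1 in each case. In NK cells the thinned share was 49.1 ± 6.6% and 52.5 ± 8.3%, which overlapped (exact p = 0.7). Without thinning the shares were 9.8 ± 1.4% and 18.5 ± 5.0% in CD8 T cells and 10.2 ± 4.9% and 27.7 ± 2.8% in other T cells. Thinned to 2000 UMIs, the CD8 T cell groups overlapped.

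A few cells held much of the Xcl1. The top cell held 21.9 to 40.8% of the Xcl1 UMIs of CD8 T cells in a sample, for example 257 of 857 UMIs in the third αPD-1 + corin sample. Among CD4 T cells of that sample 1 cell held 162 of 182 UMIs, and no CD4 T cell of the second αPD-1 sample or of the first αPD-1 + corin sample held any. Without the top cell of each sample, an alternative chosen after seeing the data, the log2 fold change was 0.74 in CD8 T cells (adjusted p = 0.00765) and 1.33 in all T cells (adjusted p = 0.0012).

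In NK cells Xcl1 was 1397, 1522 and 1181 CPM with αPD-1 and 2166, 1356 and 1505 CPM with αPD-1 + corin. The first αPD-1 + corin sample lay above the others, and the second and the third within the αPD-1 range (log2 fold change 0.32 ± 0.15, edgeR adjusted p = 0.38). Of the 2 members tested in NK cells 0 were called (1.81% of 2648 genes called, 1 at an unadjusted p under 0.05, 0 by DESeq2). At resolution 0.4 Xcl1 was called in NK cells (log2 fold change 0.62, adjusted p = 0.0326, 52 of 4713 genes called), as it was at a mitochondrial limit of 5% (0.62, adjusted p = 0.0392, 35 of 4550). In the same 2 settings the call in other T cells was lost (adjusted p = 0.125 and 0.122), with log2 fold changes of 1.75 and 1.74. The change of Xcl1 was 0.20 higher in CD8 T cells than in NK cells on the log2 scale (95% interval -0.61 to 1.00, limma, adjusted p = 0.88, 0.19% of 2625 genes called), so a difference between these lineages was not shown.

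Neutrophils held Xcl1 UMIs in the αPD-1 + corin samples, 68.0, 139 and 53.0 CPM, in 5.7%, 8.6% and 5.3% of cells. The αPD-1 samples held 20, 17 and 11 neutrophils and no Xcl1 UMI, where 3 UMIs would have been 42.6 to 92.3 CPM, so the αPD-1 values are upper limits that overlap the levels of the αPD-1 + corin samples. T cell markers in these neutrophils were 0 to 369 CPM with αPD-1 and 377 to 1187 CPM with αPD-1 + corin, and their part in the Xcl1 value was not tested. Of the 3 members tested in neutrophils edgeR called 0 (0% of 3249 genes called, 1 at an unadjusted p under 0.05) and DESeq2 1, which was Xcl1.

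**Figure D5:**
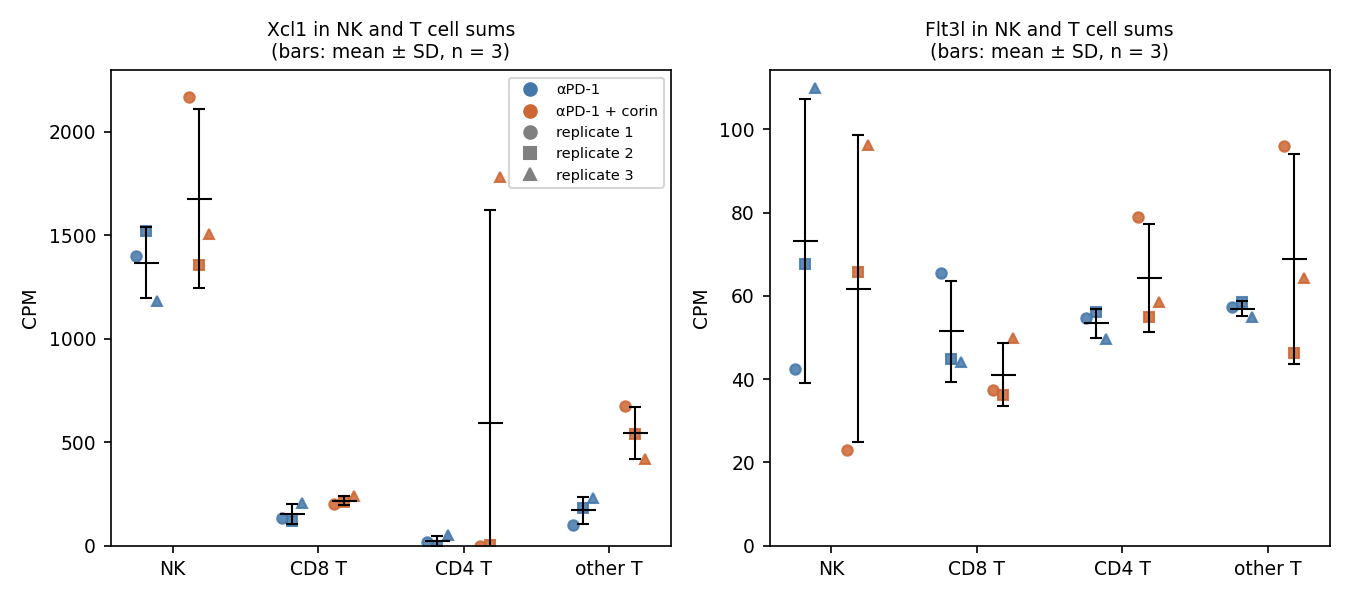
Level of Xcl1 and Flt3l (CPM) in NK cells and T cell groups for each sample, with group means and SD. Xcl1 in other T cells is 101 to 230 CPM with αPD-1 and 419 to 673 CPM with αPD-1 + corin, and where the SD exceeds the mean, as for Xcl1 in CD4 T cells, the lower bar stops at 0.

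The ligand Flt3l had its highest levels in lymphocytes and was not called in any lineage tested when every sample was used. It averaged 67.5 ± 32.4 CPM in NK cells, 62.9 ± 17.3 CPM in other T cells, 58.8 ± 10.3 CPM in CD4 T cells and 46.3 ± 10.7 CPM in CD8 T cells, and each of these overlapped the next. T cells gave 30.4 ± 7.41% of Flt3l UMIs with αPD-1 and 22.9 ± 18.6% with αPD-1 + corin (exact p = 0.6), and monocytes and macrophages, at 9.94 ± 1.26 and 9.97 ± 2.67 CPM, gave 14.8 ± 2.58% and 33.3 ± 26.5%. In contrast to Xcl1, no cell held more than 5 Flt3l UMIs in NK or T cells. The log2 fold change of Flt3l was -0.14 ± 0.21 in CD8 T cells (adjusted p = 0.77) and 0.00 ± 0.18 in all T cells (adjusted p = 0.99). In the sum over all immune cells it was -0.16, and -0.45 without the third αPD-1 + corin sample (adjusted p = 0.0247), the fit that called 5511 of 14973 genes.

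Melanoma cells, fibroblasts and endothelial cells left after CD45 enrichment gave 1.70%, 0.49% and 0.59% of Flt3l UMIs with αPD-1 and 7.27%, 5.09% and 6.03% with αPD-1 + corin. The groups did not overlap (exact p = 0.1). These cells made up 4.72% of the cells kept with αPD-1 and 14.3% with αPD-1 + corin, so their share of all cells moved the same way. B cells, 20.5% and 0.67% of the cells kept, gave 9.85 ± 2.46% and 0.36 ± 0.63% of Flt3l UMIs.

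Wdfy4 and Irf8 were also called in T cells. The T cell clusters were filled differently in the 2 groups, as given above, and the part of this in the calls was not tested. Wdfy4 in CD8 T cells was 17.5, 13.4 and 13.1 CPM with αPD-1 and 0, 4.01 and 4.22 CPM with αPD-1 + corin, from 54 and 18 UMIs, and the groups did not overlap (log2 fold change -1.79 ± 0.43, edgeR adjusted p = 0.012, 25.8% of tested genes did not overlap). The call passed in 9 of 18 alternatives. DESeq2 gave adjusted p = 0.29, and leaving out the first or the second αPD-1 sample or the third αPD-1 + corin sample ended the call (adjusted p from 0.0568 to 0.132). It was also lost with barcodes of more than 4000 genes kept (log2 fold change -0.24, adjusted p = 0.91), at resolution 1.2 (-0.63), at resolution 0.4 (-0.86), at a mitochondrial limit of 5% (-1.0) and with the replicate block (-1.74). B cells held Wdfy4 at 262 to 422 CPM, and B cell markers in the CD8 T cells were 273 to 405 CPM with αPD-1 and 34.3 to 93.6 CPM with αPD-1 + corin, moving with Wdfy4, whose part was not tested. In all T cells the log2 fold change of Wdfy4 was -1.95 ± 0.38 (adjusted p = 0.0018). With barcodes of more than 4000 genes kept it was -0.07 (adjusted p = 0.95), and at a mitochondrial limit of 5% -0.91 (adjusted p = 0.22), and both lost the call. Irf8 in other T cells was 82.3, 126 and 81.4 CPM with αPD-1 and 192, 263 and 130 CPM with αPD-1 + corin, 2.07-fold and without overlap (adjusted p = 0.0033). In all T cells its samples overlapped and the call (log2 fold change 0.81 ± 0.22, adjusted p = 0.027) was lost without the first or the third αPD-1 sample or without the second or the third αPD-1 + corin sample (adjusted p from 0.0572 to 0.117). It passed in 10 of 18 alternatives, and was also lost with barcodes of more than 4000 genes kept, without doublet removal, with LogNormalize and with members and markers kept in the clustering (adjusted p = 0.19, 0.0549, 0.0994 and 0.0611). Irf8 was not called in CD8 T cells (adjusted p = 0.22). In CD4 T cells 2 members were tested and 0 called (edgeR, 4.73% of 3913 genes called, 0 at an unadjusted p under 0.05, 0 by DESeq2, which gave an adjusted p for 1 of them).

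Other genes of the pathway were read from 4 lists. List A held 20 genes of cDC1 development and FLT3 signaling, and 18 of them were tested in cDC1, with 0 called, 2 at an unadjusted p under 0.05 (Mycl and Bcl6) and 0 by DESeq2. Their median log2 fold change was 0.11, beside 0.00 over all 5532 genes. List B, cross-presentation and class I loading, had 20 of 20 tested in cDC1 and 0 called, with Tap1 the 1 gene at an unadjusted p under 0.05, 0 by DESeq2, and a median of 0.06. List C, dendritic cell signals to T and NK cells, had 11 of 20 tested and 0 called, with Cd86 and Tnfsf9 at an unadjusted p under 0.05, 0 by DESeq2, and a median of -0.01. In cDC2 none of the tested genes of lists A (19), B (20) and C (11) was called by edgeR, with 5, 1 and 3 at an unadjusted p under 0.05, while DESeq2 called 2, 0 and 1 of the 11, 14 and 4 for which it gave an adjusted p.

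In mature dendritic cells 1 of the 14 genes of list C tested fell, where 1.61% of 2047 genes were called. It was Cxcl9, which encodes a chemokine that attracts T cells through CXCR3. It was 149, 224 and 142 CPM with αPD-1 and 28.5 and 31.6 CPM with αPD-1 + corin, from 38 and 11 UMIs (log2 fold change -2.44 ± 0.49, edgeR adjusted p = 0.014, 29.4% of tested genes did not overlap). DESeq2 gave adjusted p = 0.13, and the call passed in 6 of 11 alternatives. Leaving out the second or the third αPD-1 sample ended it (edgeR adjusted p = 0.0883 and 0.131). Leaving out the first or the second αPD-1 + corin sample left 1 sample in that group, with log2 fold changes of -2.33 and -2.48. Both of these fits are among the 11 alternatives. The medians of lists A, B and C in mature dendritic cells were 0.14, -0.18 and 0.17, beside -0.02 over 2047 genes, with 0 genes of lists A and B called (2 and 3 at an unadjusted p under 0.05, 0 by DESeq2). Of list C, 7 genes had an unadjusted p under 0.05, as did 308 of all 2047 genes (list C: Il15ra, Cxcl9, Il15, Icosl, Cd86, Cd80 and Tnfsf9), and 8 had a log2 fold change above 0.

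List D held 16 products of NK and T cells that act on dendritic cells. In CD8 T cells 12 were tested and 1 was called, where 7.88% of 8236 genes were. It was Fasl, the ligand of the death receptor FAS, at 36.9, 28.0 and 34.6 CPM with αPD-1 and 99.8, 40.1 and 54.0 CPM with αPD-1 + corin (log2 fold change 0.79 ± 0.24, edgeR adjusted p = 0.046). DESeq2 gave adjusted p = 0.34, and 3 of 19 alternatives kept the call. Leaving out any sample but the second αPD-1 + corin sample ended it (adjusted p from 0.063 to 0.238). All 12 tested genes had a positive log2 fold change, with a median of 0.66 beside 0.02 over 8236 genes. As given above, the T cell clusters were filled differently between the groups, and the part of this in these values was not tested. In NK cells 9 were tested and 0 called by edgeR, and 0 of the 7 with an adjusted p by DESeq2, with 1 (Tnf) at an unadjusted p under 0.05, and the median was -0.34 beside -0.00 over 2648 genes.

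The genes with the pattern most like each member were named from the Pearson correlation of log2(CPM + 10) over 86 sums of 15 lineages and the samples, among 7368 genes. These sums share libraries and depth, so the values are a description. Gcsam (r = 0.92), Snx22 (0.90) and Gpr141b (0.89) were most like Xcr1, and Mycl (0.91), Ppfia4 (0.89) and Tnni2 (0.88) most like Clec9a. For Tlr3 the first genes were again Snx22 (0.83), Gpr141b (0.78) and Gcsam (0.77). Wdfy4 ran with the class II genes Cd74, H2-Eb1 and H2-Ab1 (0.91 each), and Flt3 with Syngr2 (0.92), Tnni2 (0.89) and Tbc1d8 (0.87). The genes most like Xcl1 were Klrc1 and Eomes (0.90 each) and Sytl3 (0.89), and those most like Flt3l were Lck (0.88), Ms4a4b and Skap1 (0.86 each). For Batf3 they were Cst3 (0.89), Tspan33 (0.86) and Zfp366 (0.85), for Irf8 St8sia4 (0.79), Napsa (0.78) and Psme1 (0.77), and for Cadm1 Met (0.76), Aph1c and Uap1l1 (0.74 each). Gcsam and Snx22 were among the markers that named cDC1.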

How the data were processed

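CD45+ cells of 6 samples, 3 per group by the labels, were captured with 10x 5′ chemistry. Per the file headers and processing notes, the authors made UMI counts per gene and barcode with Cell Ranger 8.0 on GRCm39; these deposited counts were used. Barcodes with under 600 or over 4000 genes or over 10% mitochondrial UMIs were removed, and doublets were removed by scrublet score at a rate of 0.4% per 1000 barcodes, since its own threshold marked 0. Clustering used SCTransform (Seurat 5.3.0), 20 components and resolution 0.8, without member and marker genes. Lineages were named from fixed markers by a rule set after the data were seen, and CD8, CD4 and other T cells were split by Cd8a, Cd8b1 and Cd4 UMIs. Counts were summed per sample and lineage (at least 10 cells) and tested with edgeR 4.0.16 (quasi-likelihood, TMM, filterByExpr, Benjamini-Hochberg over all genes, threshold 0.05). CPM are UMIs scaled to a total of 1000000 per lineage sum. DESeq2 1.42.0 was an alternative, and limma 3.58.1 compared effects. The scripts were tested on simulated counts. Named were all members, list genes past the threshold (at most 4 per list, direction and lineage, with at least 20 CPM) and the 3 genes most like each member. Members, lists and tests were chosen with earlier results of these data known. Alternatives were other resolutions, filters, normalizations, thinning depths, a replicate block and leaving out samples.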

Additional observations from a re-analysis of the deposited data

Results flagged for a closer look

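The 8248 barcodes with more than 4000 genes, which the comparisons leave out, held part of the UMIs of every member. They held 46.1% of the Xcr1 UMIs, 36.3% of those of Clec9a, 32.9% of Batf3, 36.5% of Irf8, 27.5% of Wdfy4 and 28.3% of Flt3. For Cadm1 and Tlr3 the share was 85.2% and 73.2%. For the ligands it was 38.8% (Flt3l) and 32.7% (Xcl1). These UMIs lie outside the comparisons, and their source was not tested. Barcodes with more genes also hold more UMIs, and the share of all genes' UMIs in these barcodes is not given here. Whether they are rich or poor in the members cannot be read from these values.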

How the results depend on the processing

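The 3 αPD-1 + corin and 3 αPD-1 samples carry the same replicate numbers, but in no lineage did the deviations of all 3 same-numbered pairs correlate above 0.1 (range -0.259 to 0.196), so the numbers were not taken as pairs. In cDC2 the own number was best in 2 of 3 pairs (r = -0.0071, 0.146 and 0.066 for pairs 1 to 3). The replicate block took all genes called from 2 to 51 of 5141 in cDC2, from 33 to 55 of 2047 in mature dendritic cells, from 39 to 24 of 3214 in pDC and from 1812 to 27 of 14467 in all immune cells, and from 649 to 486 in CD8 T and 1817 to 1486 in all T cells. With it, members called in CD8 T cells went from 2 to 1, list A genes called in cDC2 from 0 to 2, list C genes in cDC2 from 0 to 1 and in mature dendritic cells from 1 to 3. Calls of members in CD8 T cells were 1 at resolution 0.4, with LogNormalize or with members and markers kept in the clustering, and 0 at resolution 1.2, without the upper gene limit, at a mitochondrial limit of 5%, with DESeq2 or with at least 2 coreceptor UMIs. In other T cells the 2 became 1 at resolution 0.4, without the upper gene limit, at a mitochondrial limit of 5%, with LogNormalize or with members and markers kept, and in all T cells the 3 became 1 with LogNormalize (Wdfy4). Without the upper gene limit all 3 calls in all T cells were lost and 1 other member was called (Clec9a). In NK cells 1 member, Xcl1, was called at resolution 0.4 (52 of 4713 genes called) and at a mitochondrial limit of 5% (35 of 4550). Without a filter on low counts 2 members were called in pDC, 1 in neutrophils and 1 in all immune cells, and DESeq2 called 1 in neutrophils and 3 in all immune cells (3594 of 24664 genes). Leaving out 1 sample gave 0 to 2 members in CD8 T cells, 0 to 5 in all immune cells and 0 to 1 in cDC2. The 5 and the 1 came without the third αPD-1 + corin sample, where 5511 of 14973 genes in all immune cells and 304 of 5470 in cDC2 were called.

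For the lists, no filter on low counts gave 1 gene of list A in cDC1, 3 of A and 3 of C in cDC2, 3 of C in mature dendritic cells and 4 of D in CD8 T cells. DESeq2 gave 2 of A and 1 of C in cDC2, 0 of C in mature dendritic cells and 0 of D in CD8 T cells, RLE size factors 2 of C in mature dendritic cells, and no upper gene limit 1 of A in cDC2. The 1 gene of list D in CD8 T cells was lost (0) without the upper gene limit, without doublet removal, with LogNormalize, with members and markers kept, with RLE, with at least 2 coreceptor UMIs and without the cell with most Xcl1 UMIs. Leaving out 1 sample gave 0 to 3 of A and 0 to 4 of C in cDC2, 0 to 1 of B and 0 to 4 of C in mature dendritic cells, and 0 to 3 of D in CD8 T cells and in NK cells.

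In cDC1 some small log2 fold changes turned sign. Batf3 was 0.079 without the upper gene limit, 0.000609 with LogNormalize and 0.10 with members and markers kept, Irf8 -0.0037 at a mitochondrial limit of 5%, Wdfy4 -0.031 with LogNormalize, and Cadm1 -0.68 with LogNormalize and -0.12 without the cycling cluster. Tlr3 was -0.0330 at resolution 0.4, -0.0048 at resolution 1.2, -0.014 without doublet removal, -0.13 at a mitochondrial limit of 5%, -0.23 with LogNormalize and -0.15 with members and markers kept. Leaving out 1 sample gave Cadm1 -0.094 to 0.46, Tlr3 -0.076 to 0.14, Flt3 -0.14 to 0.17 and Xcr1 -0.028 to 0.19. The cDC1 share differed by 0.915 percentage points at resolution 1.2, 0.486 without the upper gene limit and 0.923 at a mitochondrial limit of 5%. It differed by 0.432 without B cells in the denominator and by 0.17 without B cells and mixed clusters, where the cDC2 share differed by 0.251. With neutrophils left out as well, the cDC1 share differed by 0.558 and the cDC2 share by 0.829. Without the upper gene limit the source differences were 5.45 (Xcl1, NK cells) and 10.97 points (Flt3l, non-immune cells). The thinned detection differences in cDC1 became, not thinned and at 2000 UMIs, -9.21 and -8.32 points for Batf3, -0.566 and 13.2 for Wdfy4, 2.87 and 2.66 for Cadm1 and -9.06 and 4.70 for Tlr3, and -10.1 for Flt3 not thinned. The cause of these shifts was not tested. In simulated counts at the depth and sample number of the cDC1 and cDC2 sums, 111 and 108 of 200 genes changed 2-fold were called, and depth was not separated from sample number. The alternatives without the cycling cluster, without the cell with most Xcl1 UMIs and with other denominators were chosen after seeing the data.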
